A study of Mus musculus with 8 samples.

Results

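The genes Gdnf, Gfra1, Gfra2, Ret, Bdnf, Ntrk2, Ntrk3, Ngfr and Cdnf, which encode neurotrophic factors and their receptors, were followed across 8 RNA-seq libraries of the mouse ventral mesencephalic area, the part of the midbrain that holds the dopaminergic neurons. They were picked by name, whatever their levels, and all 9 were found among the 15359 genes of the deposited table, where they take 15 of its 19931 transcript rows. Of the libraries, 4 came from mice with 1 delta allele and 1 normal allele of Ercc1 (Ercc1 delta/+, here called mutant) and 4 from wild-type mice. Both groups were bred on the mixed FVB:C57BL/6J (50:50) strain background and no treatment is named for any library. Ercc1 encodes a subunit of an endonuclease that cuts damaged DNA in nucleotide excision repair. The delta allele is carried in all cells and the mutants keep a normal copy, so the comparison is of heterozygotes and not of animals without the gene. The ages of the mice, whether each library is 1 animal, and what transcript the delta allele leaves are not stated in the labels, so the p-values measure only the spread between these libraries. The question that the groups address here is whether the message of trophic factors and their receptors differs between the genotypes in this tissue.

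Trophic factors are secreted proteins that keep neurons alive and shape their connections. GDNF binds the lipid-anchored co-receptor GFRα1, and the related factor neurturin binds GFRα2; each pair then engages the tyrosine kinase RET, which dopaminergic neurons of the midbrain carry. The neurotrophins BDNF and NT-3 act through the kinases TrkB, encoded by Ntrk2, and TrkC, encoded by Ntrk3. The p75 receptor, encoded by Ngfr, binds all neurotrophins and their uncleaved precursors and has no kinase. CDNF is a factor of another family that resides largely in the endoplasmic reticulum and that protects dopaminergic neurons in lesion models.

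Ntrk2, Ntrk3 and Ret each had a pair of rows that encode receptors with different intracellular ends, and these ends are shown because the only separation between the genotypes among the 9 genes was in the balance of such rows. Each sequence runs 5′ to 3′ and gives the last coding bases shared by both rows of the gene in lower case and, in capitals, the first coding bases that belong to that row alone. They were read from the GENCODE M21 transcripts (build GRCm38) that match the RefSeq identifiers of the rows.
Ntrk2 full-length (NM_001025074): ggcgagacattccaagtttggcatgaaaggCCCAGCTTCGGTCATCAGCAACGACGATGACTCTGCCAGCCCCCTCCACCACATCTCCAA
Ntrk2 truncated (NM_008745): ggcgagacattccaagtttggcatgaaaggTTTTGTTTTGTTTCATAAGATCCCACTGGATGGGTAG
Ntrk3 full-length (NM_008746): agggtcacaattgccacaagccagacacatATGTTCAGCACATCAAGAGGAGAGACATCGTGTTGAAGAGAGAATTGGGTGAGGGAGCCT
Ntrk3 truncated (NM_182809): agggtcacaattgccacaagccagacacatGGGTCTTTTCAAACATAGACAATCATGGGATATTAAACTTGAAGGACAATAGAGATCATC
Ret short tail (NM_001080780): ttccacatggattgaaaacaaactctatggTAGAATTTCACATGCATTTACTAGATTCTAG
Ret long tail (NM_009050): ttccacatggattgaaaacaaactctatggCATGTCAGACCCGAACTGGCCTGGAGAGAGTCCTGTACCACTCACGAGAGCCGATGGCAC
The Ntrk2 rows share 1394 coding bases. The truncated one then has 37 coding bases of its own, up to and including a stop codon, and encodes 476 residues against 821 in the full-length receptor. The Ntrk3 rows share 1585 coding bases and encode 612 and 825 residues. Both truncated receptors lack the kinase domain, and truncated TrkB is known as the main TrkB form of astrocytes. The Ret rows part after 3191 coding bases, beyond the kinase, and encode 1073 and 1115 residues. The 4 rows of Bdnf differ in their 5′ exons and carry the same coding exon, and the other 5 genes have 1 row each.

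The 8 libraries held between 18303913 and 31261889 counts after 1 row was kept per gene, so that 3 counts correspond to between 0.0960 and 0.164 CPM, the counts scaled to a common library size. Levels are given in CPM with edgeR's TMM scaling, and differences as log2 fold changes of mutant minus wild type with their standard errors. Ercc1 itself was at 10.2 to 12.9 CPM in the mutants and at 13.8 to 15.3 CPM in the wild types, without overlap (log2 fold change -0.34, SE 0.10, adjusted p = 0.113, edgeR). The markers of cell types varied between the libraries. Th and Slc6a3, the tyrosine hydroxylase and the transporter that define dopaminergic neurons, were present in every library, and the summed level of 20 dopaminergic markers was 509 to 712 CPM in the mutants and 594 to 784 CPM in the wild types. Some libraries stood apart in them: mutant replicate 2 was lowest in all 7 hypothalamic markers of the table, whose sum was 24.5 CPM there and 225 to 698 CPM elsewhere. Its serotonin neuron markers summed to 86.9 CPM, against 0.650 to 7.38 CPM in the other mutants and 1.46 to 96.1 CPM in the wild types. In mutant replicate 3 the choroid plexus markers summed to 1135 CPM, against 62.2 to 473 CPM in the other 7 libraries. The 8 barcoded libraries shared a sequencing lane, and no other batch is named in the labels.

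None of the 9 genes passed an adjusted p of 0.05 (edgeR quasi-likelihood test with Benjamini-Hochberg adjustment over 15074 genes), against 7 genes or 0.0464% of all genes tested. Without mutant replicate 2 the count over all genes was 310, and that among the 9 genes was still 0. At an unadjusted p of 0.05 the count was also 0 of 9, against 18.7% of all genes, and in 0 of the 9 were the groups free of overlap, against 12% of all genes. Of the 9 log2 fold changes 5 were positive and 4 negative, with a median of 0.01 beside -0.00 over all genes. The smallest adjusted p was 0.501, for Gfra1 (edgeR), and DESeq2 gave none under the threshold either. The precision differed widely among the genes: the intervals of Gfra1, Ntrk2, Ntrk3 and Gfra2 lie between fold changes of 0.861 and 1.28, whereas those of Gdnf and Ngfr reach from 0.446 and 0.586 to 2.07 and 2.41.

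**Figure D1:**
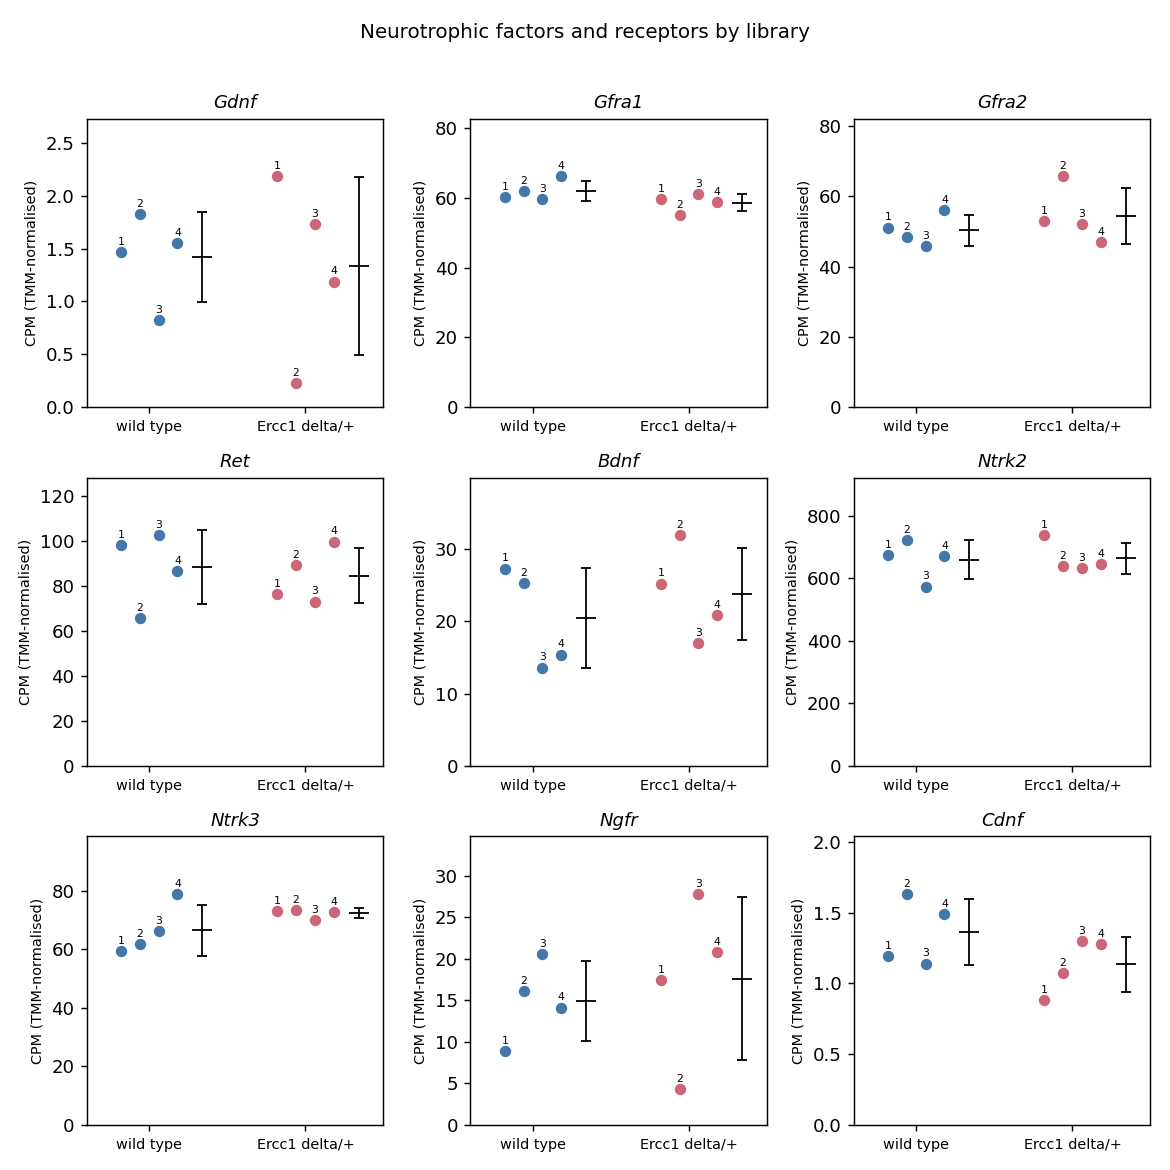
CPM of each gene (vertical axes, starting at 0) in the 4 wild-type libraries (blue) and the 4 Ercc1 delta/+ libraries (red), numbered by replicate; the bar beside each group is the mean with the SD. The groups overlap in all 9 panels, and mutant replicate 2 is the lowest library for Gdnf, at 0.226 CPM, and for Ngfr, at 4.35 CPM.

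**Figure D2:**
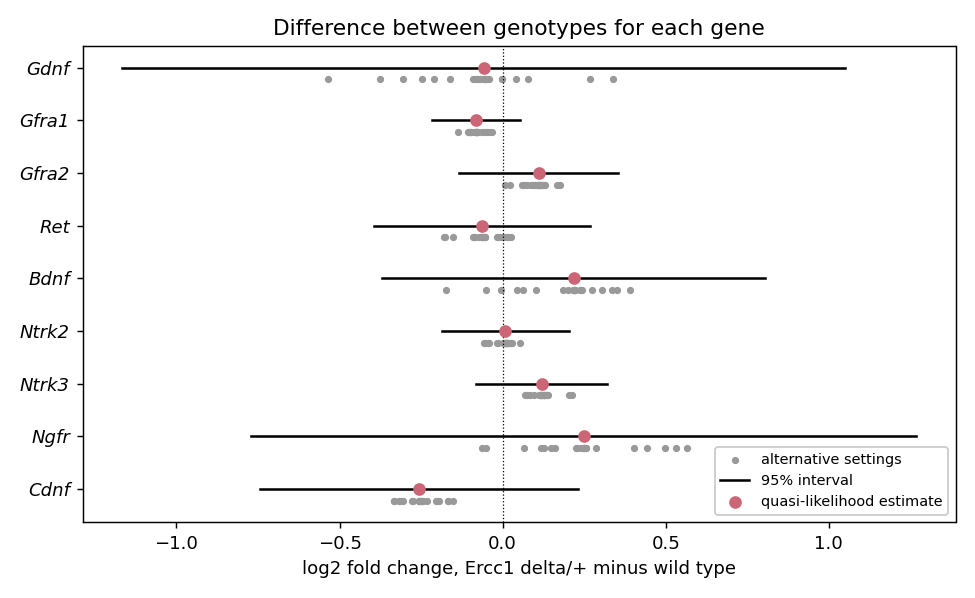
Log2 fold change of mutant minus wild type for each gene (red) with its 95% interval (line); the grey points below each line are the estimates under the alternative settings. All 9 intervals include 0, and those of Gdnf, from -1.17 to 1.05, and Ngfr, from -0.77 to 1.27, are the widest.

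Among Gdnf, Gfra1, Gfra2 and Ret, the genes of the GDNF system followed here, Gdnf had the lowest level. Its level was 2.18, 0.226, 1.73 and 1.19 CPM in mutant replicates 1 to 4 and 1.46, 1.83, 0.825 and 1.55 CPM in wild-type replicates 1 to 4, from 4 to 51 counts a library. Mutant replicate 2, with 4 counts, was far below the other libraries, and the groups overlapped. The means were 1.33 ± 0.842 and 1.42 ± 0.424 CPM (SD, n = 4 each), and the log2 fold change was -0.06 (SE 0.49, adjusted p = 0.963, edgeR). Without mutant replicate 2 it was 0.27 (unadjusted p = 0.414, edgeR). Without wild-type replicate 2 it was 0.08, and with cortical markers as a covariate 0.04, so its sign is not settled by these libraries. In whole tissue, fewer cells that make a message and less message per cell cannot be told apart.

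Gfra1, the co-receptor that binds GDNF, was the most even of the 9 genes. It was at 59.6, 55.1, 60.9 and 58.7 CPM in the mutants and at 60.2, 62.0, 59.6 and 66.1 CPM in the wild types. The mutants lay in the lower part of the range and the wild types in the upper part, with an overlap of 1 mutant library with 2 wild-type ones. The log2 fold change was -0.08 (SE 0.06, adjusted p = 0.501, edgeR), and its 95% interval in fold terms ran from 0.861 to 1.04. Gfra2, the neurturin co-receptor, was at 52.9, 65.7, 52.2 and 47.0 CPM in the mutants and at 51.1, 48.4, 45.8 and 56.1 CPM in the wild types. The highest library was mutant replicate 2, and the log2 fold change of 0.11 (SE 0.11, adjusted p = 0.615, edgeR) came to 0.01 without it.

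Ret, the signalling receptor of the system, varied by up to 1.56 times between libraries. It was at 76.3, 89.2, 72.9 and 99.5 CPM in the mutants and at 98.0, 65.7, 102 and 86.6 CPM in the wild types. The lowest and the highest library were both wild type, so the range of the mutants lay inside that of the wild types. The means of 84.5 ± 12.2 and 88.2 ± 16.4 CPM (SD, n = 4 each) had a log2 ratio of -0.06 (SE 0.15, adjusted p = 0.855, edgeR). Nothing in the GDNF system thus separated the genotypes beyond the spread between libraries. The Ret interval, from 0.760 to 1.20 in fold terms, gives the size of difference that these libraries leave possible.

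In the neurotrophin system, Bdnf, the TrkB ligand, was at 25.2, 31.9, 17.0 and 20.8 CPM in the mutants and at 27.3, 25.3, 13.6 and 15.4 CPM in the wild types. Each group held libraries on both sides of the other's mean, and the lowest value was a wild type. The means were 23.7 ± 6.38 and 20.4 ± 6.90 CPM (SD, n = 4 each), and their log2 fold change was 0.22 (SE 0.26, adjusted p = 0.691, edgeR). Cortical and hippocampal neurons are known as a main source of Bdnf in the brain. The markers of cortical, hippocampal and thalamic neurons summed to 521 to 1003 CPM in the mutants and to 358 to 738 CPM in the wild types, and with their mean as a covariate the Bdnf log2 fold change was -0.17 (adjusted p = 0.667, edgeR). Without mutant replicate 2, the library highest in Bdnf, the log2 fold change was 0.04.

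Ntrk2 was by far the most abundant of the 9 messages. Its truncated row, which carried the most counts and stands for the gene, was at 737, 639, 633 and 645 CPM in the mutants and at 672, 722, 573 and 671 CPM in the wild types. Mutant replicate 1 was above all others, the lowest library was a wild type, and the groups overlapped. The means of 664 ± 49.2 and 659 ± 62.3 CPM (SD, n = 4 each) had a log2 ratio of 0.01 (SE 0.09, adjusted p = 0.968, edgeR), with an interval in fold terms from 0.879 to 1.15.

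Ntrk3, whose truncated row also carried the most counts, was at 73.2, 73.5, 70.0 and 72.8 CPM in the mutants and at 59.4, 61.7, 66.2 and 78.9 CPM in the wild types. The mutants lay close together, above 3 of the wild types and below replicate 4. The log2 fold change was 0.12 (SE 0.09, adjusted p = 0.503, edgeR). Without wild-type replicate 4 it was 0.21, with an unadjusted p of 0.00801 and an adjusted p of 0.138 (edgeR), the lowest adjusted p of any of the 9 genes under any setting tried.

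Ngfr, the p75 receptor, had the second-largest spread. It was at 17.4, 4.35, 27.8 and 20.8 CPM in the mutants and at 8.86, 16.1, 20.5 and 14.1 CPM in the wild types, from 77 to 770 counts a library. Both the lowest and the highest library were mutants. The log2 fold change was 0.25 (SE 0.45, adjusted p = 0.807, edgeR). It came to 0.56 without mutant replicate 2 (adjusted p = 0.287, edgeR). Without mutant replicate 3 it was -0.06 (adjusted p = 0.955, edgeR), so its direction rests on single libraries. Mutant replicate 3 is the library highest in choroid plexus markers. With the mean of those markers Ngfr had r = 0.049 over the 8 libraries (exact permutation p = 0.903, adjusted over 108 relations 0.983).

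Cdnf was about as scarce as Gdnf. Its level was 0.882, 1.07, 1.30 and 1.28 CPM in the mutants and 1.19, 1.63, 1.14 and 1.49 CPM in the wild types, from 19 to 49 counts a library. The lowest 2 libraries were mutants and the highest 2 were wild types, with overlap between. The log2 fold change of -0.26 (SE 0.22, adjusted p = 0.557, edgeR) was the largest in size among the 9 genes and was within the spread, and its fold interval ran from 0.597 to 1.17.

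Genes were ordered by wild-type level per kilobase of transcript, the only scale used here to set one gene against another. The ligands and p75 lay below the rows that stand for the other genes. For Ntrk2 and Ntrk3 these are the truncated rows, which lack the kinase, and their full-length rows were not placed in this order. Full-length Ntrk3 had a wild-type mean of 22.1 CPM, on the scale of the fit over rows, for a transcript of 19703 bases. Gdnf was at 0.386 CPM per kb (range over the 4 wild types 0.225 to 0.498) and Cdnf at 0.453 (0.378 to 0.541), and these neighbours overlapped. Ngfr, at 4.33 CPM per kb (2.57 to 5.96), and Bdnf, at 4.78 (3.19 to 6.40), overlapped as well and lay about an order of magnitude above. Next, clear of Bdnf, came Gfra1 at 13.4 (12.8 to 14.2), Gfra2 at 14.5 (13.2 to 16.2), Ntrk3 at 16.7 (14.9 to 19.8) and Ret at 19.6 (14.6 to 22.8), each overlapping its neighbour. Ntrk2, at 216 CPM per kb (188 to 237), stood above all the rest without overlap. The lengths are those of the GENCODE M21 transcripts, and the gene models behind the deposited counts may differ, most of all in the untranslated ends. Among the wild types the coefficient of variation ran from 4.71% for Gfra1 to 33.9% for Bdnf, beside a median of 10.5% over all genes. Over all 8 libraries the highest level was 9.65 times the lowest for Gdnf and 6.39 times for Ngfr.

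Taken row by row, 0 of the 15 transcript rows passed an adjusted p of 0.05 (edgeR over 19602 rows), against 0.0204% of all rows, and 0 of 15 were free of overlap, against 12%. The 4 Bdnf rows differed by at most 4.05% in any library, so they carry nearly the same reads and are 1 measurement. The row nearest the threshold was full-length Ntrk3. Its level, on the scale of the fit over rows, was 25.8, 25.6, 26.5 and 26.1 CPM in the mutants and 20.4, 19.4, 21.1 and 27.4 CPM in the wild types. Again 3 wild types lay below every mutant and replicate 4 lay above, and the log2 fold change was 0.23 (SE 0.11, adjusted p = 0.280, edgeR). For full-length Ntrk2 the log2 fold change was 0.13 (SE 0.09, adjusted p = 0.488, edgeR) and for the truncated row 0.00 (SE 0.09). The authors' deposited table places 1.86% of all rows under an adjusted p of 0.05. The smallest adjusted p that the authors' deposited table gives for a row of the 9 genes is 0.498, for full-length Ntrk3, with a log2 fold change of 0.21.

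The balance between the receptor forms did separate the groups. The count of the truncated Ntrk2 row divided by that of the full-length row was 1.60, 1.56, 1.65 and 1.67 in the mutants. In the wild types it was 1.76, 1.75, 1.76 and 1.79. Every mutant was below every wild type, and the wild types were nearly identical. The mean ratio was 1.62 ± 0.0464 against 1.77 ± 0.0141 (SD, n = 4 each), lower by 0.12 on the log2 scale in mutants, with a two-sided exact permutation p of 0.0286, the smallest that 4 libraries against 4 allow. Relative to the sequences above, the rows ending in the short truncated tail thus had fewer counts for each count of the rows that run on into the kinase.

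For Ntrk3 the same ratio was 2.01, 2.03, 1.87 and 1.99 in the mutants and 2.07, 2.27, 2.23 and 2.05 in the wild types. Every mutant was again below every wild type, but the gap between mutant replicate 2 and wild-type replicate 4 was narrow. The mean was 1.97 ± 0.0735 against 2.15 ± 0.110 (SD, n = 4 each), lower by 0.13 on the log2 scale in mutants, with the same two-sided exact permutation p of 0.0286. After Benjamini-Hochberg adjustment over these 2 ratios both remain at 0.0286. Leaving out any 1 mutant raised the Ntrk3 exact permutation p to between 0.0571 and 0.114, although the groups stayed free of overlap. The Ntrk2 one was 0.0286 without any 1 library, which is the smallest that the test allows there as well. The Ret short-tail to long-tail ratio, looked at after the values of the other ratios were known, was 1.17 in each mutant and 1.17 to 1.20 in the wild types, with overlap at the edge and an exact permutation p of 0.0571.

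Among the 1597 genes with exactly 2 rows and at least 50 counts in every library, the ratio of the rows was free of overlap between the genotypes in 98, or 6.14%. The median size of the log2 difference over these genes was 0.00481, and 48 genes, 3.01%, had a difference at least as large as that of Ntrk2. Only pairs with the same counts in every library were left out, so pairs that share nearly all their reads could stay in. The ratio of such a pair can hardly move, and the size of the Ntrk2 difference was not compared with more distinct pairs alone. Rows of a gene share reads and were counted by a method that the sources used here do not name, so the ratio is one of row counts and not of molecules. The full-length transcripts are much longer, 8744 against 3049 bases for Ntrk2 and 19703 against 3977 bases for Ntrk3, and over all genes the log2 fold change rose with transcript length (Spearman's rho = 0.395 across 14735 genes, which are not independent replicates). Among the 257 of these genes whose longer row was at least 2 times the shorter one, as in Ntrk2 and Ntrk3, the groups were free of overlap in 22, or 8.56%. In that class 46.7% had a lower short-to-long ratio in mutants, with a median log2 difference of 0.000402. The summed level of 8 astrocyte markers was 2705 to 4524 CPM in the mutants and 2564 to 4228 CPM in the wild types, and the part of tissue makeup or transcript length in the ratios was not tested.

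**Figure D3:**
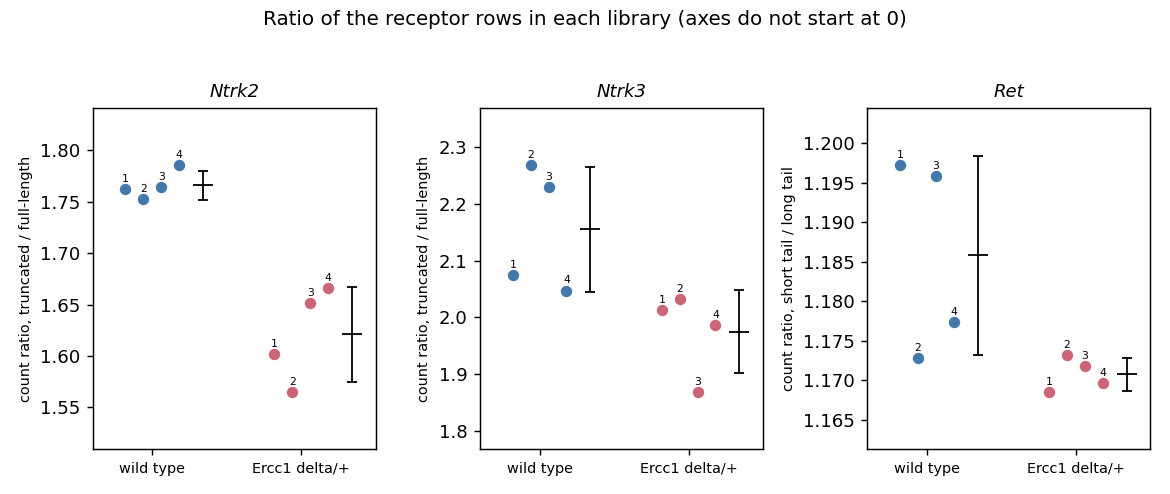
Ratio of the counts of the shorter receptor row to those of the longer one in each library, numbered by replicate, for Ntrk2, Ntrk3 and Ret; bars are the mean with the SD and the vertical axes do not start at 0. The 4 mutants lie below the 4 wild types for Ntrk2 and, narrowly, for Ntrk3, while the Ret ratios overlap at the edge.

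Each gene was set against the mean of the dopaminergic markers, and by Spearman's rho Ret and Gdnf passed the adjusted threshold. Ret was low in the libraries with the weakest mean of the dopaminergic markers (mutant replicates 1 and 3 and wild-type replicate 2) and high where it was strong. Not all markers followed that mean. Th and Slc6a3 were lowest in mutant replicate 3, at 31.9 and 38.0 CPM. Drd2 was highest in wild-type replicate 2, at 49.8 CPM, and next in mutant replicate 1, at 33.9 CPM. Dlk1 was lowest in mutant replicate 2, at 110 CPM, and highest in wild-type replicate 4, at 248 CPM. Over the 8 libraries the log2 CPM of Ret correlated with the mean of the 20 dopaminergic markers at r = 0.732 (exact permutation p = 0.0381, adjusted over the 9 genes 0.212) and rho = 0.857 (exact p = 0.0107, adjusted 0.0482). Without the 2 libraries farthest from the median of the markers, mutant replicate 3 and wild-type replicate 3, r was 0.619. Without mutant replicate 3 the Ret log2 fold change was 0.00, where it had been -0.06. That library was highest in choroid plexus markers, with which Ret had r = -0.487 (exact p = 0.222, adjusted over 108 relations 0.727). With the dopaminergic markers as a covariate the Ret log2 fold change was 0.03. Gdnf ran the other way, with r = -0.720 (exact p = 0.0471, adjusted 0.212), rho = -0.905 (exact p = 0.00456, adjusted 0.0411) and r = -0.915 without those 2 libraries. By Pearson's r none of the 9 relations passed the adjusted threshold, and without mutant replicate 3 there were 2 that did. Groups of 4 libraries are too few for a correlation within a genotype.

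Against the other 12 marker lists 108 relations were computed, of which 0 passed an adjusted p of 0.05 by Pearson's r and 1 by Spearman's rho. The exact unadjusted p was under 0.05 for 11 of them by r and for 3 by rho. The one that passed was Ntrk3 with the markers of meningeal fibroblasts and Schwann cells, at rho = 0.976 (exact p = 0.000397, adjusted 0.0429) and r = 0.886 (exact p = 0.00203, adjusted 0.110), and r was 0.966 without mutant replicate 2 and wild-type replicate 1. The summed level of these markers was 140.9 to 174 CPM in the mutants and 84.5 to 169 CPM in the wild types, where replicate 4, the library that was also highest in Ntrk3, held the most. Ngfr and the markers of motor and other cholinergic neurons, cells that can carry p75, did not pass the adjusted threshold, with r = 0.966 (exact p = 0.00067, adjusted 0.0723) and rho = 0.833 (exact p = 0.0154, adjusted 0.749), and r was 0.837 without mutant replicates 2 and 3. These markers summed to 34.5 CPM in mutant replicate 2 and to 72.0 CPM in mutant replicate 3, the libraries lowest and highest in Ngfr. They disagreed in mutant replicate 2: Isl1 was lowest there, at 0.622 CPM, whereas Phox2a, at 0.622 CPM, and Prph, at 7.18 CPM, were highest there. Chat, at 5.37 CPM there, was lowest in wild-type replicate 1, at 5.32 CPM. Bdnf and the markers of cortical, hippocampal and thalamic neurons did not pass the adjusted threshold either. Their r was 0.784 (exact p = 0.0201, adjusted 0.449) and their rho 0.810 (exact p = 0.0218, adjusted 0.749). Without mutant replicate 2 and wild-type replicate 4 r was 0.617. The relation was not particular to these markers. With astrocyte markers Bdnf had r = 0.770 (exact p = 0.0325, adjusted 0.449), and 0.902 without mutant replicate 1 and wild-type replicate 2. With the cholinergic markers its r was -0.742 (exact p = 0.0196, adjusted 0.449). Gdnf and the hypothalamic markers had r = 0.851 (exact p = 0.0635, adjusted 0.490) and rho = 0.190 (exact p = 0.665, adjusted 0.944), and r was -0.03 without mutant replicate 2 and wild-type replicate 4, so the relation rests on those libraries.

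**Figure D4:**
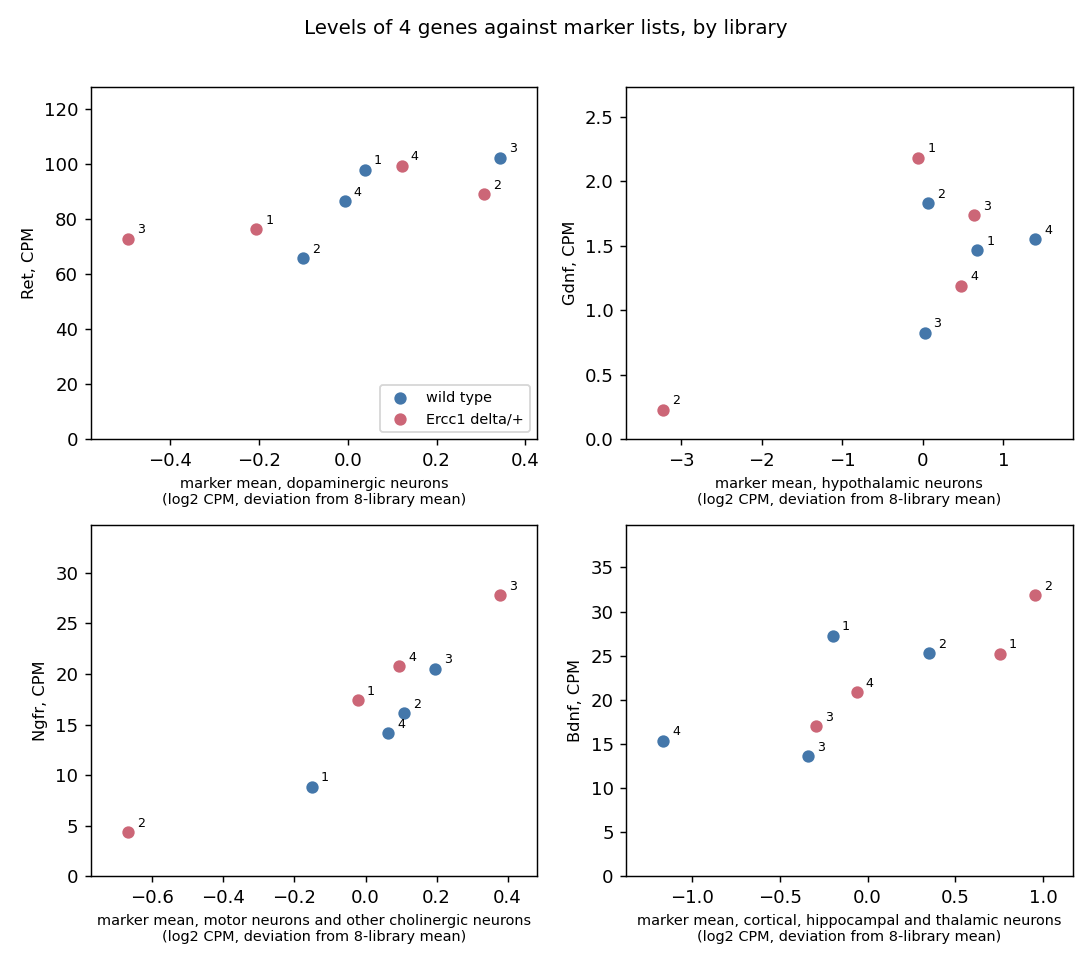
CPM of 4 genes (vertical axes) against the mean log2 CPM of a marker list, as the deviation from the mean of the 8 libraries (horizontal axes), in wild types (blue) and mutants (red), numbered by replicate. Pearson's r is 0.732 for Ret with the dopaminergic markers, 0.966 for Ngfr with the cholinergic and 0.784 for Bdnf with the cortical, hippocampal and thalamic ones, none past the adjusted threshold, and Gdnf is low in mutant replicate 2, whose hypothalamic markers are 3.22 below the mean on the log2 scale.

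The genes whose log2 CPM followed each of the 9 most closely over the 8 libraries were searched among 14258 genes with a mean of at least 1 CPM and are given as a description, without a test. Nearest to Ret was Trmt5, which encodes a tRNA methyltransferase, at r = 0.923. Gdnf was most like Sox1, encoding a transcription factor of neural progenitors, at r = 0.987; both were lowest in mutant replicate 2, where Sox1 was at 17.4 CPM against 26.0 to 39.0 CPM elsewhere. Ngfr had Six3, a forebrain transcription factor gene, among its nearest at r = 0.947, with 13.7 CPM in mutant replicate 2 and 29.95 to 49.7 CPM in the other libraries. Ntrk3 was nearest to Myh11, the smooth muscle myosin gene, at r = 0.976, and Myh11 was at 9.44 to 26.4 CPM in the wild types and at 20.4 to 21.4 CPM in the mutants. For Bdnf the nearest was Aftph (r = 0.967), for Ntrk2 it was Fam91a1 (r = 0.967), for Gfra1 Rsph9 (r = 0.960) and for Cdnf Me2 (r = 0.936). The row nearest to Gfra2 had no symbol, and next came Hs3st3a1, a heparan sulfate sulfotransferase gene, at r = 0.934.

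The other genes of these pathways were described from 10 lists of 132 genes, 9 of them the genes above, of which 127 could be tested. None passed an adjusted p of 0.05 in either direction (edgeR), against 0.0133% of all genes higher and 0.0332% lower. In 17, or 13.4%, the unadjusted p was under 0.05, against 18.7% of all genes, and in 10 the groups did not overlap (7.87%, against 12%). DESeq2 placed 7 of them past the threshold and edgeR's exact test 4, against 1052 and 556 of all 15074 genes. The log2 fold changes were positive in 104 and negative in 23, with a median of 0.11. The pathway genes were long, with a median transcript of 3622 bases against 3005, and of the 5566 genes at least as long as that 67.4% were higher in mutants and the median log2 fold change was 0.08. With an offset for length and GC content 92 of the 127 were positive, with a median of 0.07, beside 50.7% of all genes.

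Within the GDNF family, the log2 fold change of Artn, encoding the ligand artemin, was -0.42 (SE 0.24, adjusted p = 0.380, edgeR) at 9 to 32 counts a library. Sort1, encoding sortilin, the partner of p75 in binding precursor neurotrophins, was at 493 ± 87.7 CPM in the mutants and 382 ± 67.7 CPM in the wild types (SD, n = 4 each; adjusted p = 0.257, edgeR), with overlap. Furin, encoding a protease that cleaves neurotrophin precursors, was at 47.7 to 51.1 CPM in the mutants and 38.1 to 44.0 CPM in the wild types, without overlap and with an adjusted p of 0.0916 (edgeR). Manf, the relative of Cdnf, was at 62.7 ± 8.68 CPM against 53.8 ± 15.3 CPM (SD, n = 4 each), a difference within the spread (adjusted p = 0.571, edgeR). Bex3 and Bex1, whose products bind p75, lay the other way, and their groups did not overlap. Their log2 fold changes were -0.22 (SE 0.07, adjusted p = 0.164, edgeR) and -0.29 (SE 0.11, adjusted p = 0.209, edgeR). With the length and GC offset they were -0.03 and -0.09 (adjusted p = 0.934 and 0.836, edgeR), and the log2 fold change of Furin was 0.12 (adjusted p = 0.481, edgeR). With cortical markers as a covariate the log2 fold changes were 0.08 for Sort1, 0.02 for Manf and -0.25 for Artn, against 0.37, 0.22 and -0.42 without it.

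The smallest adjusted p among the pathway genes was that of Osmr. Osmr, the oncostatin M receptor of the CNTF and LIF family, was at 8.08, 8.08, 5.27 and 9.28 CPM in the mutants and at 3.58, 4.00, 3.65 and 4.47 CPM in the wild types. The groups did not overlap, as was so with higher mutants in 5.16% of all genes, and the log2 fold change was 0.96 (SE 0.18) with an adjusted p of 0.0602 (edgeR), which ranged from 0.000297 to 0.195 over the alternative settings. Lifr and Il6st, of the same list, were also without overlap. The log2 fold change of Lifr was 0.46 (SE 0.13, adjusted p = 0.112, edgeR), and 0.30 with cortical or hypothalamic markers as a covariate. That of Il6st was 0.12 (SE 0.06, adjusted p = 0.308, edgeR), and -0.0058 with the length and GC offset. Met, the receptor of hepatocyte growth factor, was at 4.41 to 8.87 CPM in the mutants and 2.79 to 3.76 CPM in the wild types (adjusted p = 0.0722, edgeR), and Fgfr1, a fibroblast growth factor receptor, at 126 to 171 CPM against 105 to 113 CPM (adjusted p = 0.0930, edgeR). Ptprs, encoding a receptor phosphatase that can dampen Trk signalling, was at 553 ± 40.2 CPM against 463 ± 15.3 CPM (SD, n = 4 each; adjusted p = 0.105, edgeR), with an adjusted p of 0.0489 (edgeR) without mutant replicate 2. With the length and GC offset its log2 fold change was 0.04 where it had been 0.25 (adjusted p = 0.857, edgeR). Osmr passed the threshold without mutant replicate 3 (adjusted p = 0.0499, edgeR). The calls depended on the tool. DESeq2, which placed 1052 of all genes past the threshold, gave an adjusted p of 0.0216 for Lifr, 0.00196 for Met, 0.00818 for Fgfr1 and 0.0111 for Ptprs. For Furin and Npas4 DESeq2 gave 0.0127 and 0.0384. With hypothalamic markers as a covariate the adjusted p of Ptprs was 0.0454 (edgeR). Endothelial and pericyte markers summed to 273 to 380 CPM in the mutants and to 242 to 279 CPM in the wild types, and their part in these values, like that of the meningeal markers given above, was not tested. In the list of transcripts that neurotrophins induce the log2 fold changes had a median of 0.47 and were above 0 for 9 of 10 genes. The summed level of the cortical, hippocampal and thalamic markers was 521 to 1003 CPM in the mutants and 358 to 738 CPM in the wild types, and their part in these values was not tested other than by using them as a covariate. Homer1, encoding a scaffold protein of synapses, had a log2 fold change of 0.75 (adjusted p = 0.305, edgeR), with those markers as a covariate 0.14 (adjusted p = 0.661, edgeR) and with a depth term 0.30. Npas4, an activity-induced transcription factor gene and the member with the smallest p, was at 8.13 to 16.9 CPM in the mutants and 7.67 to 9.49 CPM in the wild types (adjusted p = 0.145, edgeR). Its log2 fold change of 0.68 was 0.42 with the same covariate and 0.34 with a depth term. The depth term marked the 4 libraries with the fewest counts, mutant replicates 1, 2 and 4 and wild-type replicate 2. It thus overlapped with genotype, and depth and genotype cannot be fully told apart in it.

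**Figure D5:**
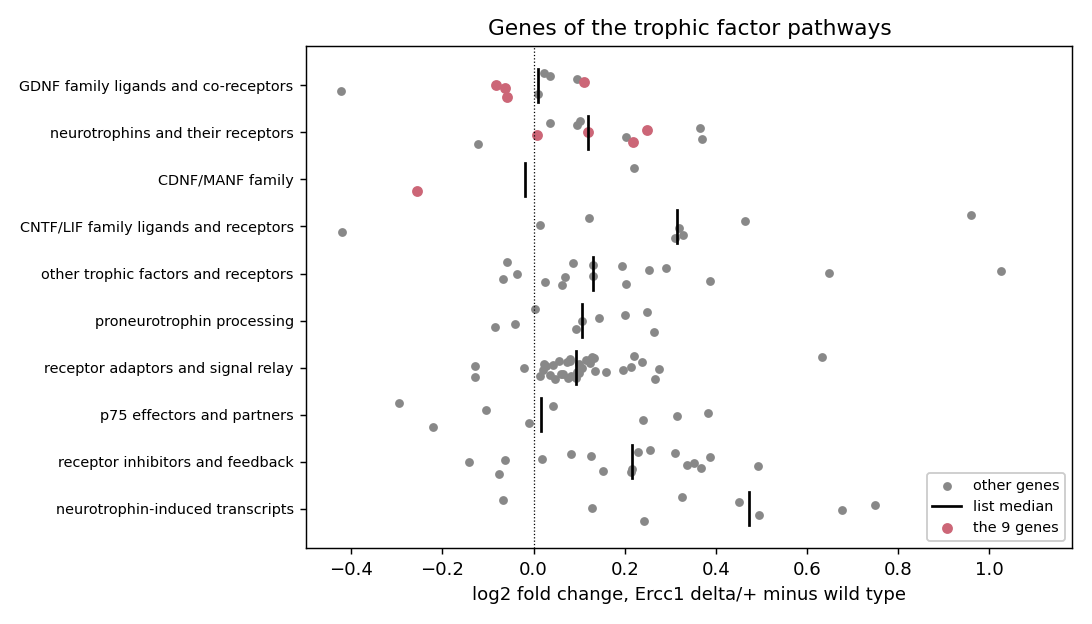
Log2 fold changes of mutant minus wild type for the 127 tested genes of the 10 pathway lists (grey), with the 9 genes of the report in red and the median of each list as a black bar; within a list the vertical offset only separates the points. The points of most lists lie mainly above 0, with medians from -0.02 to 0.47, and none of the genes passed an adjusted p of 0.05.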

How the data were processed

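Poly(A) RNA of the ventral mesencephalic area was sequenced from 4 Ercc1 delta/+ and 4 wild-type samples. The deposited table holds raw read counts per coding RefSeq transcript. The submitters' processing notes name TopHat 1.3.1, edgeR and build mm9; no source used here names the counter, the strand or the handling of reads shared by transcripts. The authors' deposited table also gives their log2 fold changes, p-values and adjusted p-values.

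Identifiers were paired with symbols through the GRCm38.p6 RefSeq table (19456 of 19931 rows; the other 475 kept their identifier), and the row with the highest total stood for a gene. Counts were tested with edgeR 4.0.16 (R 4.3.3; TMM, filterByExpr, quasi-likelihood test, adjusted p 0.05 over all genes); log2 CPM for correlations used a prior count of 2. Row ratios were tested by exact permutation after adding 0.5 counts. DESeq2 1.42.0, limma 3.58.1 (voom), other scalings and filters, covariates and leaving out each library were alternatives. Fits were checked on simulated counts. Each SE is the log2 fold change divided by the root of its F statistic, 95% intervals cover the spread between libraries, and floors of 3 counts cover counting error only.

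The genes and lists were chosen with earlier results of these data known. The text names the 9 genes, up to 3 others of smallest p per pathway list, Ercc1, Th, Slc6a3 and Gfap, and the 3 genes most correlated with each of the 9. All pairs of replicates differed by more than counting error. Replicate numbers did not pair the samples (same-numbered correlations of deviations -0.29, 0.17, -0.12 and 0.28).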

Additional observations from a re-analysis of the deposited data

Results flagged for a closer look

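In a group of 4, a library was singled out where its gap to the nearest of the others was above Dixon's 95% critical share of the group's range. Of 88 groups checked 7 met this, and chance alone gives about 1 in 20. Among the 9 genes it was met once, by Ntrk2, which was at 737 CPM in mutant replicate 1 and at 633 to 645 CPM in the other mutants; without that library the Ntrk2 log2 fold change was -0.05. The other cases were pathway genes. Met was at 3.76 CPM in wild-type replicate 2 and at 2.79 to 2.81 CPM in the other wild types. Fgfr1 was at 113 CPM in wild-type replicate 4, against 105 to 106 CPM. Rapgef1, encoding an exchange factor that relays Trk signals, was at 152 CPM in wild-type replicate 2, against 127 to 130 CPM. Sh2b1, encoding a Trk adaptor, was at 105 CPM in mutant replicate 4, against 95.8 to 96.8 CPM. Bex3 and Bex1 were both highest in wild-type replicate 4, at 214 and 109 CPM, against 192 to 193 CPM and 85.8 to 88.5 CPM.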

How the results depend on the processing

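The count of the 9 genes past the threshold was 0 under all alternatives run, hypothalamic markers as a covariate included, which was added after the data were seen. That of their 15 rows was 0 under the fewer alternatives run on rows. These were RLE scaling, no filter, DESeq2, the replicate block and leaving out each library. Over all genes the count depended on the setting: 7 became 33 with RLE and 77 with upper-quartile scaling, 50 with a stricter filter, 556 with edgeR's exact test, 1052 with DESeq2, 52 with limma-voom, 1 with a depth term, 1 with the length and GC offset, and 1, 2 and 319 with dopaminergic, cortical or hypothalamic markers as a covariate. Leaving out 1 library gave 0 to 310, with 310 without mutant replicate 2, 17 without mutant replicate 3, 3 and 0 without mutant replicates 1 and 4, and 1 or 2 without each wild type. With the replicate block no gene passed (0), and none of the 9; not every sample correlated best with its own number. Pathway genes past the threshold numbered 0, but 4 with edgeR's exact test, 7 with DESeq2, 1 with the hypothalamic covariate, and 0 to 1 when 1 library was left out. Of 198 log2 fold changes of the 9 genes under alternatives, 178 kept their direction and side of the threshold and 20 turned sign. The Ret value was 0.014 with the depth term, 0.026 with dopaminergic and 0.00061 with cortical markers, and -0.18 to 0.015 without 1 library. Gdnf was at 0.040 with cortical and 0.34 with hypothalamic markers, and at -0.38 to 0.27 without 1 library. Bdnf was at -0.052 with the depth term, -0.17 with cortical and -0.0049 with hypothalamic markers. Ntrk2 was at -0.014 with upper-quartile scaling, -0.056 with the depth term, -0.017 and -0.040 with dopaminergic and cortical markers, and -0.055 to 0.055 without 1 library. Ngfr was at -0.051 with dopaminergic markers and at -0.064 to 0.56 without 1 library. Among the other genes, with dopaminergic markers Th was at 0.022 and Slc6a3 at 0.081 (without 1 library -0.27 to 0.050 and -0.31 to 0.11). Gfap was at -0.019 with the depth term and -0.015 with cortical markers, and Gfra4 at -0.050 with the latter. With the length and GC offset Ncam1 was at -0.044 and Il6st at -0.0058, and Ncam1 was at -0.016 to 0.11 without 1 library. The cause of these changes was not tested, other than that a library less leaves less information. The row ratio differences ranged without 1 library from -0.14 to -0.11 for Ntrk2, -0.15 to -0.10 for Ntrk3 and -0.024 to -0.014 for Ret. No blocked test was run for the ratios, whose blocked differences were the same as the unblocked ones. The count of relations to dopaminergic markers that passed was 0 to 2 without 1 library. Gdnf, at 4 to 51 counts, and Cdnf, at 19 to 49, are limited by depth.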
